A study of Culex pipiens pallens and Culex quinquefasciatus with 12 samples.

Results

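The enzymes that carry sugar from the blood of a mosquito larva to the mitochondrion were followed through 73 gene models, of 17757 with a read in any library. A model was included when its deposited description held a word from the name of trehalose, trehalase, a glycolytic enzyme or an enzyme of the citric acid cycle. Such words also matched some enzymes of other pathways, which stay in the counts of members. The match used descriptions only, but the words were chosen with earlier results of these data known. Each library held poly(A) RNA of a pool of 30 whole larvae. The 5 libraries of *Culex pipiens quinquefasciatus*, the southern house mosquito, were compared with the 7 libraries of *Culex pipiens pallens*, a house mosquito that ranges farther north. The title of the series speaks of resistance levels, but the labels carry no level, age, strain or treatment. Only the subspecies could therefore be compared. Any difference between the groups in resistance level, age, strain or treatment cannot be told apart from subspecies. Nothing in the labels says that pools came from separate cultures, so p-values measure the spread between these libraries, which may be technical.

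Trehalose is the main sugar of insect blood. The fat body makes it with trehalose-6-phosphate synthase, and trehalase splits it into glucose where it is used. Glycolysis turns glucose into pyruvate, which the pyruvate dehydrogenase complex feeds into the citric acid cycle, and carriers in the inner mitochondrial membrane exchange the cycle's acids with the cytosol. Working muscle, gut and fat body all draw on these steps, so in RNA of whole larvae fewer cells of a tissue and less RNA per cell cannot be told apart.

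Libraries held 3885 to 5183 kiloreads (1 kiloread is 1000 uniquely mapped reads), so that 3 reads equal 0.579 to 0.772 CPM, counts scaled to a total of 1e6, before TMM scaling. Larval storage proteins, which mark the fat body of feeding larvae, took 3.84% to 16.8% of reads. The lowest shares were 4.14% in pallens 6 and 3.84% in pallens 7. Quinquefasciatus 5 stood apart from quinquefasciatus 1 to 4 at several members and lay beside pallens 1 there, so the results that rest on it are also given without it. Whether its label is right was not tested. Every quinquefasciatus mean and every fold over 12 libraries includes it as labelled. It was singled out after values were seen, so adjusted p-values without it are not an independent test. The 73 members together took between 1.58% of reads, in pallens 2, and 2.78%, in quinquefasciatus 4. The mean share was 2.29% ± 0.37 over 5 quinquefasciatus libraries (SD) and 2.18% ± 0.36 over 7 pallens libraries (SD). That difference is smaller than the SD of either group.

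Few gene models of the pathway separated the subspecies beyond the spread of the libraries. Of the 73 members, 54 had enough reads to be tested. The other 19 reached at most 16 reads in any library. Among the 54, 1 was lower in pallens and 0 were higher (edgeR quasi-likelihood test with a threshold of 0.05 on p after Benjamini-Hochberg adjustment over 10617 genes). Of all tested genes 0.537% were called, 0.198% lower and 0.339% higher. The one that fell was a trehalase. At an unadjusted p under 0.05 there were 2 members, both lower in pallens, or 3.70% of 54, against 13.0% of all tested genes, of which 6.46% were lower and 6.56% higher. Libraries of the subspecies did not overlap at 1 member, against 1.22% of all tested genes (0.499% lower and 0.725% higher in pallens). The median log2 change was -0.06 over the members and 0.02 over all tested genes. Log2 changes lay within 0.5 of 0 for 44 members, or 81.5%, against 74.9% of all tested genes, and beyond 1 for 3 members, or 5.56%, against 7.79%. Negative changes numbered 36 of 54 here, against 5039 of 10617 over all tested genes. With normalization by library totals they numbered 32 of 54, against 4478 of 10617. Without quinquefasciatus 4 they numbered 26 of 54, against 5091 of 10841, and without pallens 1 they numbered 40 of 54, against 5035 of 10536. Within a subspecies the median SD of the members was 0.50 on the log2(CPM + 1) scale, against 0.41 for all tested genes. The genes were not matched for level, on which an SD on that scale can depend.

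**Figure D1:**
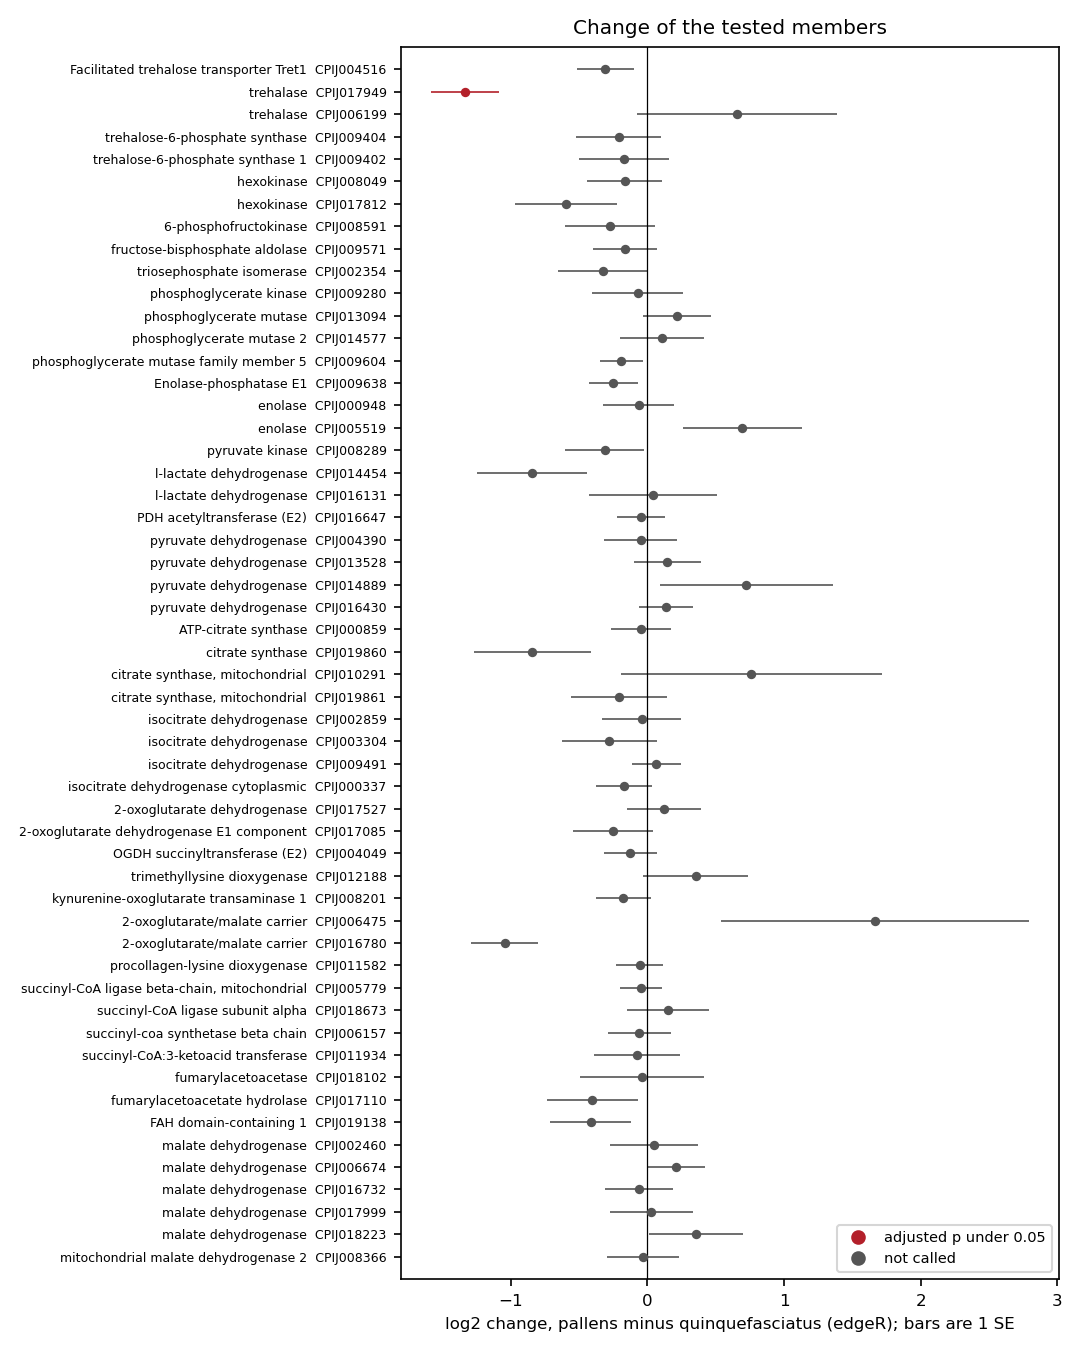
Log2 change of each of the 54 tested members, pallens minus quinquefasciatus, from edgeR (horizontal axis), with bars of 1 SE; 1 row per gene model, in pathway order. Trehalase CPIJ017949 is the only member past the threshold, and the gene models of the 2-oxoglutarate/malate carrier lie on opposite sides of 0, one of them with an SE of 1.13.

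Levels per length spanned the pathway unevenly. RPKM, which scales reads by gene model length and library total, was used to compare genes. Enolase (CPIJ000948-RA), a late step of glycolysis, and fructose-bisphosphate aldolase (CPIJ009571-RA), which splits the phosphorylated hexose, were the 2 members with a mean above 1000 RPKM. Enolase averaged 3550 ± 854 RPKM in pallens and 3573 ± 679 RPKM in quinquefasciatus. Aldolase averaged 2956 ± 541 RPKM in pallens and 3219 ± 583 RPKM in quinquefasciatus. Within a library enolase was the higher, except in quinquefasciatus 2, pallens 1 and pallens 7. The difference between these neighbours in the order was not tested. Pyruvate kinase (CPIJ008289-RA), the last step of glycolysis, followed at 882 RPKM over the 12 libraries. Phosphoglycerate mutase 2 (CPIJ014577-RA) and mitochondrial malate dehydrogenase 2 (CPIJ008366-RA) came next, at 662 and 661 RPKM. At the other end of the glycolytic chain were 6-phosphofructokinase (CPIJ008591-RA), the committed step, at 88.8 RPKM, and hexokinase (CPIJ008049-RA), which phosphorylates glucose, at 26.0 RPKM. In all, 21 members averaged at least 100 RPKM and 18 averaged under 1 RPKM. Hexokinase reads covered only 30.0% of its model on average, against 99.7% for pyruvate kinase, and its RPKM divides by the whole length.

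**Figure D2:**
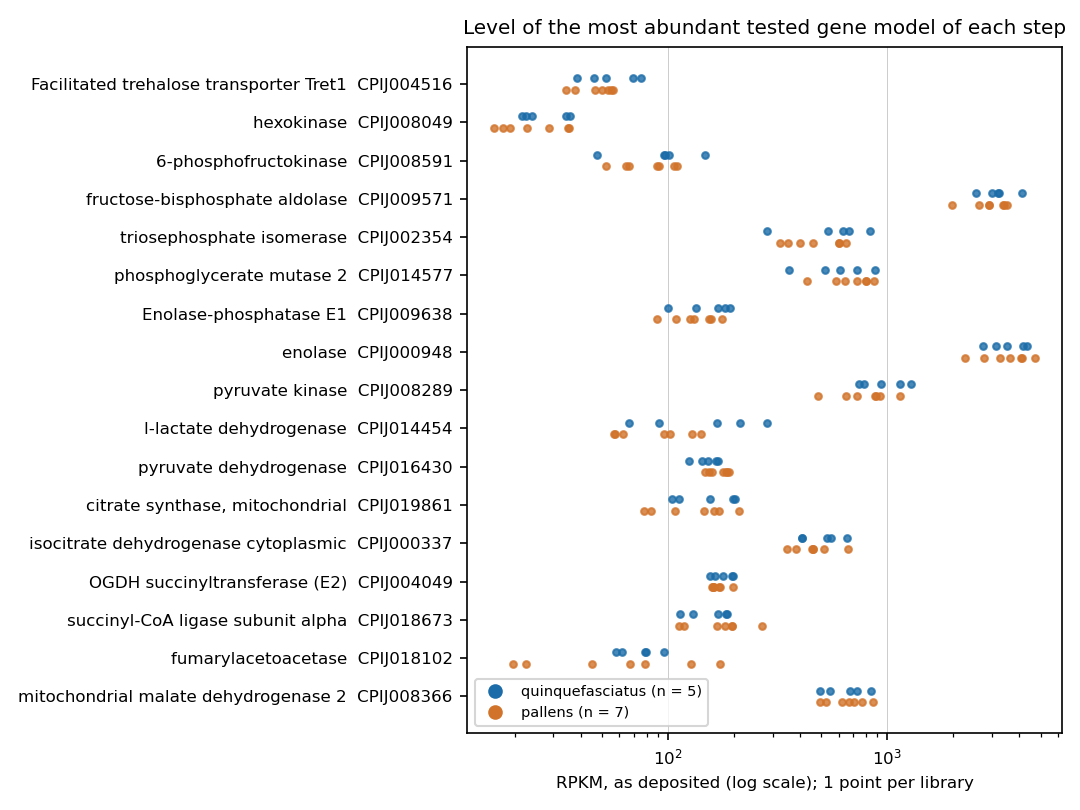
Deposited RPKM (log scale) of the most abundant tested gene model of each step; each point is 1 library, blue for quinquefasciatus (n = 5) and orange for pallens (n = 7). Enolase and aldolase stand above 1000 RPKM in every library, hexokinase has the lowest mean, and the subspecies overlap at each of the 17 models shown.

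Trehalase CPIJ017949-RA, which splits trehalose into glucose, lay on supercont3.1075 at 12769 to 14996. It had 46.6, 54.9, 35.2, 73.1 and 45.5 CPM in quinquefasciatus 1 to 5 (TMM-normalized). It had 13.6 to 30.5 CPM with a median of 16.0 in the 7 pallens libraries. Every pallens library was below every quinquefasciatus library, and pallens 1 was the closest to them. It averaged 51.1 ± 14.2 CPM in quinquefasciatus (SD, n = 5) against 20.2 ± 7.06 CPM in pallens (SD, n = 7). The fold change was 2.52, lower in pallens (log2 change -1.34, SE 0.25, edgeR adjusted p = 0.0345). The call held in 15 of 26 alternative settings. It was lost with quinquefasciatus 1 (edgeR adjusted p = 0.0981), quinquefasciatus 2 (0.0747), quinquefasciatus 3 (0.0661) or quinquefasciatus 4 (0.117) left out. The same held with pallens 2 (edgeR adjusted p = 0.0678), pallens 3 (0.0814), pallens 5 (0.0823), pallens 6 (0.0875) or pallens 7 (0.0697) left out, with pallens 6 and 7 both left out (0.158), and at a threshold of 0.01. The log2 change stayed between -1.50 and -1.17 in all 26. Reads covered 83.8% to 88.7% of the model in quinquefasciatus 1 to 4 but 50.4% in quinquefasciatus 5, and 40.8% to 52.2% in pallens. With 173 reads quinquefasciatus 5 thus covered less of the model than quinquefasciatus 3 with 196 reads, at 86.5%. Trypsins and chymotrypsins, markers of the gut, took 0.848% to 1.41% of reads in quinquefasciatus and 0.399% to 1.14% in pallens. Negative log2 changes were had by 37 of 52 tested members of that list, against 5039 of 10617 tested genes. In that list 0 passed the threshold. Their part in the trehalase result was not tested.

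The second trehalase model (CPIJ006199-RA, described as a precursor, on supercont3.118 at 485017 to 488483) had the reverse pattern in most libraries. It had 4.99, 4.24, 3.77, 6.0 and 65.0 CPM in quinquefasciatus 1 to 5. It had 14.9 to 66.3 CPM with a median of 18.5 in the 7 pallens libraries. Quinquefasciatus 1 to 4 lay below every pallens library, whereas quinquefasciatus 5 was level with pallens 1, the highest pallens library at 66.3 CPM. Over all 12 libraries it was not called (log2 change 0.66, SE 0.73, edgeR adjusted p = 0.717). Without quinquefasciatus 5 it was higher in pallens by a log2 change of 2.45 (edgeR adjusted p = 0.0143). The 2 models together had 38.9 to 111 CPM in quinquefasciatus and 30.1 to 96.9 CPM in pallens. With their counts summed into 1 row before the fit, the log2 change was -0.55 (SE 0.34, edgeR adjusted p = 0.491), and without quinquefasciatus 5 it was -0.30 (SE 0.34, edgeR adjusted p = 0.734). The sum was highest in quinquefasciatus 5 and pallens 1. CPIJ017949-RA held 90.3%, 92.8%, 90.3% and 92.4% of the trehalase reads in quinquefasciatus 1 to 4. It held 41.2% in quinquefasciatus 5 (exact binomial 95% interval 36.4% to 46.1%) and 31.5% to 53.0% in pallens.

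The rest of the trehalose genes did not pass the test. Trehalose-6-phosphate synthase, which makes the sugar, had a pair of models on supercont3.229, CPIJ009402-RA at 389658 to 390766 and CPIJ009404-RA at 403494 to 411809. CPIJ009404-RA ranged from 76.9 to 156 CPM in quinquefasciatus and from 43.0 to 151 CPM in pallens (log2 change -0.21, SE 0.31). The facilitated trehalose transporter Tret1 (CPIJ004516-RA), a carrier of trehalose across cell membranes, had 68.6, 55.5, 108, 119.8 and 97.7 CPM in quinquefasciatus 1 to 5. It had 55.2 to 86.9 CPM with a median of 71.7 in the 7 pallens libraries, so the subspecies overlapped (log2 change -0.31, SE 0.21, edgeR adjusted p = 0.526). A gustatory receptor for trehalose (CPIJ016213-RA), a taste receptor, had at most 1 read in any library and was not tested.

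Glycolysis proper held 0 calls in either direction. Of the 8 abundant models from hexokinase to pyruvate kinase, 7 had negative log2 changes between -0.33 and -0.06, and phosphoglycerate mutase 2 had a positive one of 0.11. Triosephosphate isomerase (CPIJ002354-RA), which interconverts the triose phosphates, averaged 487 ± 204 CPM in quinquefasciatus (SD, n = 5) against 388 ± 145 CPM in pallens (SD, n = 7), or -0.33 on the log2 scale (SE 0.33, edgeR adjusted p = 0.687). Pyruvate kinase averaged 2182 ± 748 CPM in quinquefasciatus (SD, n = 5) against 1755 ± 629 CPM in pallens (SD, n = 7), or -0.31 on the log2 scale (SE 0.29). Enolase averaged 6498 ± 1951 CPM in quinquefasciatus (SD, n = 5) against 6220 ± 1778 CPM in pallens (SD, n = 7), or -0.06 on the log2 scale (SE 0.26), and its sign turned in 6 of 26 alternatives. With SEs of 0.24 to 0.33 for the 8, differences of that size were not detectable at this depth and spread. Hexokinase CPIJ017812-RA, a second model with 1.54 to 13.3 CPM, changed by -0.60 on the log2 scale with an SE of 0.37 (edgeR adjusted p = 0.50). A short enolase model (CPIJ005519-RA, 657 bases) had 6.52, 4.45, 7.53, 12 and 28.2 CPM in quinquefasciatus 1 to 5. It had 10.5 to 32.7 CPM with a median of 20.9 in the 7 pallens libraries (log2 change 0.69, SE 0.44, edgeR adjusted p = 0.50), and quinquefasciatus 5 again lay among the pallens libraries. Without it the log2 change was 1.30 (edgeR adjusted p = 0.104). The other 3 enolase models never exceeded 2 reads.

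Most of the glycolytic models were low in the same pools and high in the same pools. By name, 14 tested models fell between hexokinase and lactate dehydrogenase. Of all 14, 13 were below their own mean in pallens 2, 13 in pallens 7 and 11 in quinquefasciatus 2. In quinquefasciatus 5 and pallens 4, 13 of the 14 were above it, and in quinquefasciatus 4 and pallens 1, 12 were. A less abundant phosphoglycerate mutase (CPIJ013094-RA) ran the other way, at 31.6 CPM in quinquefasciatus 2 and 40.6 CPM in pallens 7 but 18.0 CPM in quinquefasciatus 4 and 15.8 CPM in pallens 4. Phosphoglycerate mutase family member 5 (CPIJ009604-RA), counted here by its name only, stayed between 7.98 and 13.2 CPM. A chain of 10 of the models was chosen after values were seen and left out both of these. All 10 were below their own mean in quinquefasciatus 2, pallens 2 and pallens 7. All 10 were above it in quinquefasciatus 4, quinquefasciatus 5, pallens 1 and pallens 4. The median difference from the mean was -0.82 in quinquefasciatus 2, -0.68 in pallens 2 and -0.87 in pallens 7, on the log2(CPM + 1) scale. It was 0.78 in quinquefasciatus 4, 0.62 in pallens 1 and 0.48 in quinquefasciatus 5. By library totals alone the same 6 values were -0.72, -0.51, -0.63, 0.64, 0.40 and 0.21. High and low pools thus occurred in both subspecies. How many of all tested genes lay below their own mean in each pool was not counted. These counts therefore have no background beside them. The 62 muscle contraction genes took 4.76% of reads in quinquefasciatus 2, 3.62% in pallens 2 and 3.83% in pallens 7. They took 6.38% in quinquefasciatus 4, 6.58% in pallens 1 and 7.26% in quinquefasciatus 5, and between 4.94% and 6.44% in the other 6 libraries. The part of muscle RNA in the levels of the chain was not tested.

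**Figure D3:**
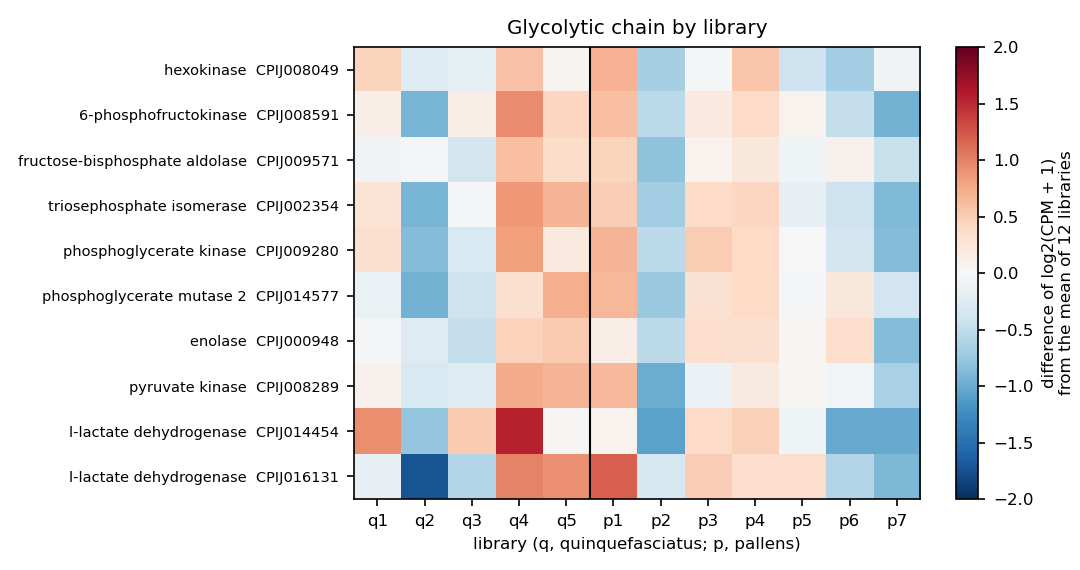
Difference of log2(CPM + 1) from the mean of the 12 libraries (colour), by library (columns, q for quinquefasciatus and p for pallens). Rows are 10 of the 14 tested gene models with names of glycolytic enzymes, chosen after values were seen. The columns q2, p2 and p7 are low throughout and q4, q5, p1 and p4 are high throughout, on both sides of the line between the subspecies.

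Lactate dehydrogenase, which turns pyruvate into lactate when oxygen is short, had a pair of models of 996 bases each. CPIJ014454-RA, on supercont3.570 at 167530 to 173662, had 204, 61.6, 154, 313 and 109 CPM in quinquefasciatus 1 to 5. It had 50.5 to 149 CPM with a median of 100.3 in the 7 pallens libraries. The highest libraries were quinquefasciatus 4 and 1, and the groups overlapped (log2 change -0.84, SE 0.40, edgeR adjusted p = 0.394). CPIJ016131-RA, on supercont3.810 at 52035 to 56377, had 95.1, 31.8, 71.0, 214 and 202 CPM in quinquefasciatus 1 to 5. It had 57.1 to 247 CPM with a median of 137 in the 7 pallens libraries (log2 change 0.04, SE 0.47). CPIJ014454-RA held 68.2%, 66.0%, 68.5% and 59.4% of the pair's reads in quinquefasciatus 1 to 4, but 35.1% in quinquefasciatus 5 (exact binomial 95% interval 32.4% to 37.9%) and 31.2% to 52.1% in pallens. Summed, the pair had 93.4 to 527 CPM in quinquefasciatus and 109.7 to 359 CPM in pallens (log2 change -0.40, SE 0.40, edgeR adjusted p = 0.680). Without quinquefasciatus 5 the log2 change was -0.97 for CPIJ014454-RA (edgeR adjusted p = 0.359), 0.29 for CPIJ016131-RA (edgeR adjusted p = 0.837) and -0.38 for the sum (edgeR adjusted p = 0.748). Each model had a model described as bestrophin 2,3,4, a chloride channel protein, as a neighbour on its scaffold. Reads covered 42.4% to 78.6% of CPIJ014454-RA and 55.9% to 69.9% of CPIJ016131-RA.

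The pyruvate dehydrogenase complex, the gate between glycolysis and the cycle, held models with little spread and models with more. The most abundant of its models (CPIJ016430-RA) averaged 240.2 ± 48.1 CPM in quinquefasciatus (SD, n = 5) against 264 ± 50.6 CPM in pallens (SD, n = 7), or 0.13 on the log2 scale (SE 0.20). The acetyltransferase component (CPIJ016647-RA) averaged 239 ± 45.6 CPM in quinquefasciatus (SD, n = 5) against 231 ± 29.6 CPM in pallens (SD, n = 7), or -0.05 on the log2 scale (SE 0.18). Its within-subspecies SD of 0.23 on the log2(CPM + 1) scale was under the 0.41 median of all tested genes, which were not matched for level. Pyruvate dehydrogenase CPIJ004390-RA ran from 64.7 CPM in pallens 2 to 196 CPM in quinquefasciatus 5, with an SD of 0.47 on that scale (log2 change -0.05, SE 0.27). For CPIJ013528-RA that SD was 0.41, with 64.6 to 152 CPM (log2 change 0.14, SE 0.25). Of the 8 models with this name, 5 were tested and 0 passed.

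Citrate synthase, which joins acetyl groups to oxaloacetate and opens the cycle, was read on a pair of mitochondrial precursor models. CPIJ010291-RA, on supercont3.262 at 465638 to 470703, had 20.1, 18.6, 12.2, 22.3 and 478 CPM in quinquefasciatus 1 to 5. It had 58.1 to 553 CPM with a median of 157 in the 7 pallens libraries. Its within-subspecies SD was the largest among members whose mean log2 CPM was 3 or more, at 1.60 on the log2(CPM + 1) scale. Quinquefasciatus 1 to 4 lay below every pallens library, while quinquefasciatus 5 and pallens 1 were the 2 highest of the 12. It was not called over all libraries (log2 change 0.76, SE 0.96, edgeR adjusted p = 0.752). Without quinquefasciatus 5 it was higher in pallens by a log2 change of 3.35 (edgeR adjusted p = 0.0228), and without quinquefasciatus 5 and pallens 1 by 2.77 (edgeR adjusted p = 0.00608).

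The other model, CPIJ019861-RA on supercont3.2018 at 13350 to 14867, had 175, 114, 121, 262 and 277 CPM in quinquefasciatus 1 to 5. It had 76.6 to 289 CPM with a median of 186 in the 7 pallens libraries, so the groups overlapped (log2 change -0.21, SE 0.35). It held 89.7%, 85.9%, 90.8% and 92.2% of the pair's reads in quinquefasciatus 1 to 4, 36.7% in quinquefasciatus 5 (exact binomial 95% interval 34.9% to 38.5%) and 34.3% to 65.8% in pallens. The sum of the pair was 133 to 755 CPM in quinquefasciatus and 136 to 842 CPM in pallens, highest in quinquefasciatus 5 and pallens 1 (log2 change 0.23, SE 0.54, edgeR adjusted p = 0.881). That value moved when quinquefasciatus 5 was left out, and the sum was not refitted without pallens 1. Without quinquefasciatus 5 the log2 change of the sum was 0.91 (SE 0.49, edgeR adjusted p = 0.448), and that of CPIJ019861-RA was -0.04 (edgeR adjusted p = 0.980). Although CPIJ019861-RA had 389 to 1222 reads, they covered at most 42.0% of it in any library. A fragment beside it on the scaffold, CPIJ019860-RA (192 bases, at 5932 to 8133), had a log2 change of -0.84 with 3 to 31 reads (SE 0.43, edgeR adjusted p = 0.417).

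Among models named for dehydrogenases or ligases of the cycle 0 passed the test. Isocitrate dehydrogenase models whose descriptions give no compartment changed little. Log2 changes were -0.28 for CPIJ003304-RA (SE 0.35), -0.04 for CPIJ002859-RA (SE 0.29) and 0.06 for CPIJ009491-RA (SE 0.18). The most abundant model of that name was the cytoplasmic one (CPIJ000337-RA), a source of NADPH and not a mitochondrial step. It averaged 737 ± 157 CPM in quinquefasciatus (SD, n = 5) against 655 ± 144 CPM in pallens (SD, n = 7), or -0.17 on the log2 scale (SE 0.21). The succinyltransferase component of 2-oxoglutarate dehydrogenase (CPIJ004049-RA) averaged 324 ± 71.6 CPM in quinquefasciatus (SD, n = 5) against 297 ± 56.8 CPM in pallens (SD, n = 7), or -0.13 on the log2 scale (SE 0.20). Succinyl-CoA ligase subunit alpha (CPIJ018673-RA) averaged 149 ± 46.3 CPM in quinquefasciatus (SD, n = 5) against 165 ± 66.5 CPM in pallens (SD, n = 7), and pallens 1 was its highest library at 289 CPM. Mitochondrial malate dehydrogenase 2 averaged 870.0 ± 287 CPM in quinquefasciatus (SD, n = 5) against 850.2 ± 261 CPM in pallens (SD, n = 7), or -0.03 on the log2 scale (SE 0.27), and its sign turned in 10 of 26 alternatives. The name malate dehydrogenase was given to 15 models, of which 6 were tested and the other 9 had at most 7 reads in any library. No description matched aconitase or glyceraldehyde-3-phosphate dehydrogenase, and the 3 descriptions that matched the word for fumarase were of fumarylacetoacetate enzymes.

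The carrier that exchanges 2-oxoglutarate for malate across the inner mitochondrial membrane had a pair of models of 930 bases each, and they moved apart. CPIJ016780-RA, on supercont3.951 at 43159 to 47987, had 61.6, 62.7, 76.6, 113 and 51.1 CPM in quinquefasciatus 1 to 5. It had 23.0 to 54.3 CPM with a median of 32.9 in the 7 pallens libraries. The groups overlapped at quinquefasciatus 5 and pallens 1 (log2 change -1.05, SE 0.25, edgeR adjusted p = 0.0914). The change missed the threshold here, and DESeq2 (adjusted p = 0.00929) and limma on log2(RPKM + 1) (adjusted p = 0.0487) called it. So did edgeR without quinquefasciatus 5 (adjusted p = 0.0411) or without pallens 1 (adjusted p = 0.0265). In all, 7 of 26 alternative settings called this model, among them the looser threshold of 0.1. Limma-voom and edgeR with the other normalizations did not call it.

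CPIJ006475-RA, on supercont3.129 at 600286 to 605281, had 0 reads in quinquefasciatus 1, 2 and 4, 8 reads in quinquefasciatus 3 and 134 reads in quinquefasciatus 5. A count of 0 allows up to 0.595, 0.681 and 0.579 CPM in those 3 libraries. In CPM it was at 1.43 in quinquefasciatus 3 and 35.3 in quinquefasciatus 5, and it had 6.36 to 50.1 CPM with a median of 18.5 in the 7 pallens libraries. Every pallens library was above quinquefasciatus 1 to 4, and quinquefasciatus 5 was second only to pallens 1. Over all libraries it was not called (log2 change 1.67, SE 1.13, edgeR adjusted p = 0.530). Without quinquefasciatus 5 it was higher in pallens (edgeR adjusted p = 0.00547). Summed, the pair had 61.6 to 113 CPM in quinquefasciatus and 29.4 to 104 CPM in pallens (log2 change -0.47, SE 0.29, edgeR adjusted p = 0.490), and without quinquefasciatus 5 the log2 change of the sum was -0.45 (edgeR adjusted p = 0.569). CPIJ016780-RA held 98.2% to all of the pair's reads in quinquefasciatus 1 to 4, 59.1% in quinquefasciatus 5 (exact binomial 95% interval 53.6% to 64.5%) and 52.0% to 78.4% in pallens.

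**Figure D4:**
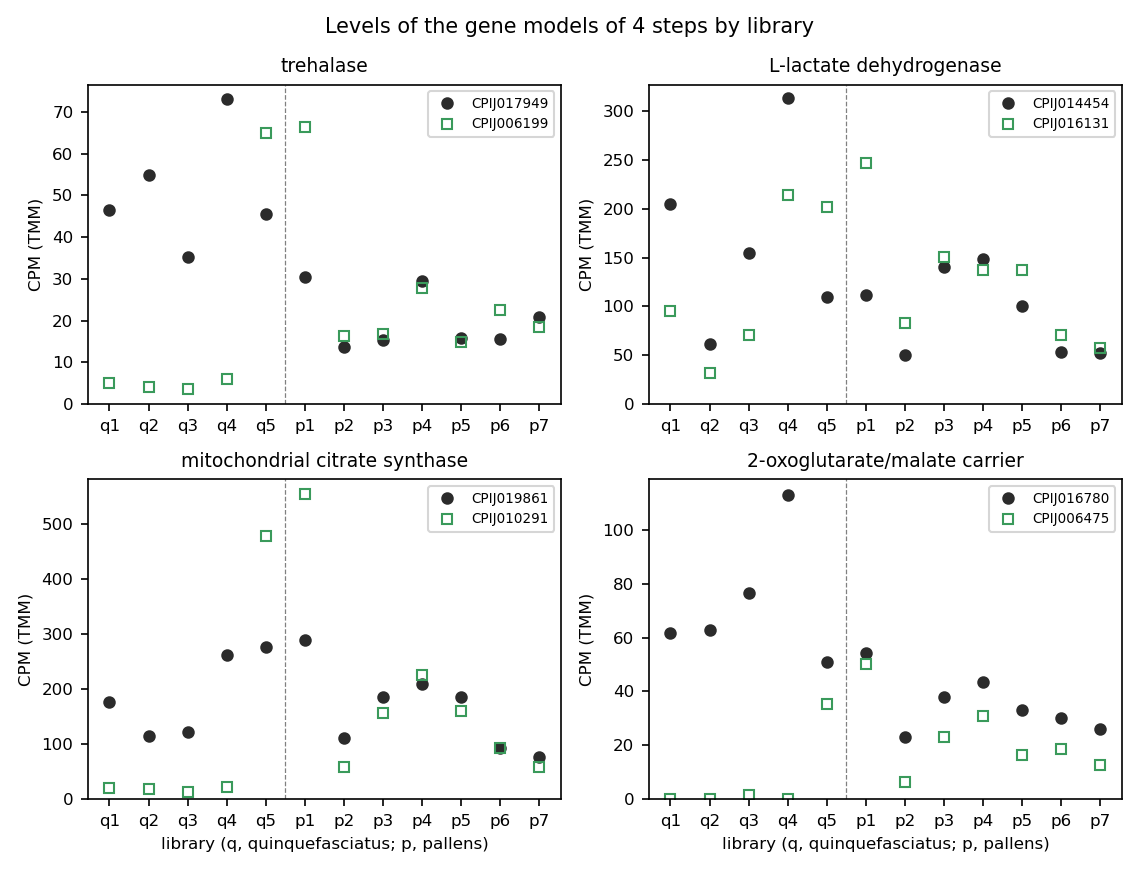
TMM-normalized CPM of the gene models of trehalase, L-lactate dehydrogenase, mitochondrial citrate synthase and the 2-oxoglutarate/malate carrier in each library (q, quinquefasciatus; p, pallens; dashed line between them). The open squares are near 0 in q1 to q4 for 3 of the 4 steps, and in q5 they lie at 65.0, 478 and 35.3 CPM, within the pallens range.

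These 4 pairs were singled out after their values were seen. In each, the first model held a larger share of the pair's reads in quinquefasciatus 1 to 4 than in quinquefasciatus 5 or any pallens library. For citrate synthase the share was lower in quinquefasciatus 5 although CPIJ019861-RA itself was at its highest quinquefasciatus level in quinquefasciatus 5. Hexokinase CPIJ008049-RA held 81.2% to 84.2% of the reads of the 2 tested hexokinase models in quinquefasciatus and 80.4% to 93.9% in pallens. Without quinquefasciatus 5, edgeR called 5 of the 54 tested members, 3 higher and 2 lower in pallens, and all 5 belonged to these pairs. That fit called 1.93% of all genes, 1.28% higher and 0.645% lower. The same 5 were called without quinquefasciatus 5 and pallens 1, where 3.40% of all genes were called, 1.74% higher and 1.66% lower. Without pallens 1 alone 2 members were called, both lower, against 2.17% of all genes, 0.759% higher and 1.41% lower. Quinquefasciatus 5 was set apart for its values at models such as these. That the calls without it fell in these pairs is therefore not independent evidence about them. Only uniquely mapped reads were counted, so reads that match both models of a pair equally are in neither count. How alike the sequences of the pairs are was not analysed here. Over the 54 tested members together, quinquefasciatus 5 and pallens 1 differed by a median of 0.28 on the log2(CPM + 1) scale. That was rank 7 from the smallest of 66 pairs of libraries. Quinquefasciatus 5 differed by 0.52, 0.63, 0.64 and 0.27 from quinquefasciatus 1 to 4 in turn. From pallens 2 to 7 it differed by 0.32, in pallens 4, to 0.85, in pallens 2.

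Several members belong to other pathways and share only a name. Fumarylacetoacetase (CPIJ018102-RA), which ends tyrosine breakdown, ranged from 71.0 to 112 CPM in quinquefasciatus. It had 21.7 to 181 CPM with a median of 87.8 in the 7 pallens libraries; pallens 2 and 5 were lowest and pallens 6 and 7 highest (log2 change -0.04, SE 0.45). A fumarylacetoacetate hydrolase domain protein (CPIJ019138-RA) changed by -0.42 on the log2 scale with an SE of 0.30 (edgeR adjusted p = 0.554). Enolase-phosphatase E1 (CPIJ009638-RA), of methionine salvage, averaged 339.5 ± 52.7 CPM in quinquefasciatus (SD, n = 5) against 286 ± 46.7 CPM in pallens (SD, n = 7), or -0.25 on the log2 scale (SE 0.18).

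Among 76 other genes of sugar and carbon metabolism, from glycogen turnover to the pentose phosphate shunt and sugar transport, 57 were tested and 0 passed in either direction. At an unadjusted p under 0.05 there were 2 higher and 5 lower of the 57. Of all tested genes 6.56% were higher and 6.46% lower at that threshold. The median log2 change was -0.02, against 0.02 over all tested genes. The smallest p-values were those of a sugar transporter (CPIJ005300-RA), with means of 4.16 ± 2.27 CPM in quinquefasciatus (SD, n = 5) against 1.28 ± 0.99 CPM in pallens (SD, n = 7; edgeR adjusted p = 0.158), and of glucose-6-phosphate isomerase. That enzyme, the step between hexokinase and phosphofructokinase, was read on several models that also went in opposite directions. CPIJ017610-RA averaged 216 ± 69.1 CPM in quinquefasciatus (SD, n = 5) against 123 ± 38.8 CPM in pallens (SD, n = 7), or -0.81 on the log2 scale (SE 0.26, edgeR adjusted p = 0.201). CPIJ006486-RA averaged 151 ± 87.2 CPM in quinquefasciatus (SD, n = 5) against 267 ± 62.1 CPM in pallens (SD, n = 7), or 0.82 on the log2 scale (SE 0.32, edgeR adjusted p = 0.302). The latter had 119, 78.6, 104, 155 and 299 CPM in quinquefasciatus 1 to 5, so that quinquefasciatus 5 again lay within the pallens range of 144 to 323 CPM. It was called without quinquefasciatus 5 (log2 change 1.23, edgeR adjusted p = 0.0379). In all, CPIJ006486-RA and CPIJ017610-RA were each called in 2 of 26 alternative settings. The sugar transporter CPIJ005300-RA was called in 1 of the 24 settings that tested it. A second sugar transporter (CPIJ008944-RA) had -0.71 on that scale with an SE of 0.28 (edgeR adjusted p = 0.298).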

How the data were processed

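Per the file headers, each deposited table gives the count of uniquely mapped reads per gene model, how many percent of its length reads covered, and the authors' RPKM. Counts summed to the header total in all 12 libraries, and deposited RPKM equalled count over length and total to rounding error. The labels and headers used here name no aligner, counter or genome build. Gene models without reads are left out of a table and were set to 0. Lengths were multiples of 3 for 89.2% of models, so they are mostly coding lengths. Per the labels' protocols the libraries do not record strand; 3 members overlap another model.

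The counts of all genes were fitted with the quasi-likelihood test of edgeR 4.0.16 (R 4.3.3; filterByExpr, TMM, robust dispersion; pallens minus quinquefasciatus, 12 libraries) and adjusted over 10617 genes. The biological coefficient of variation was 42.0%. CPM values are TMM-normalized, with factors of 0.832 to 1.19. On simulated counts for the same groups (10411 genes tested), the fit found 21 of 97 genes given a 2-fold change, 75 of 93 given a 4-fold change, and 5 that had none. Alternatives used DESeq2 1.42.0, limma 3.58.1, other normalizations, filters and thresholds, and libraries left out. Summing the models of 4 steps, with and without quinquefasciatus 5, was added after values were seen. Intervals and the limit of 3 reads for a count of 0 cover counting error only. Named members were the called ones, the most abundant of each step, the 6 next smallest p, the 4 most variable within subspecies and any abundant one unread in a library; of the other pathway genes the 4 smallest p. Further members were named after their values were seen, to complete pairs and steps. Members and lists were chosen with earlier results of these data known. RefSeq identifiers matched 0 gene models, and sequences were not analysed here.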

Additional observations from a re-analysis of the deposited data

Results flagged for a closer look

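Of 60 groups examined, 5 quinquefasciatus or 7 pallens libraries at each of 30 named genes, 6 held a library far from the others of its subspecies by the gap between it and its nearest neighbour. Chance flags about 1 in 20 groups of genes picked without regard to spread. That rate does not hold here, because CPIJ006199-RA, CPIJ010291-RA and CPIJ006475-RA were named for their spread within subspecies. Quinquefasciatus 5 stood above quinquefasciatus 1 to 4 at the second trehalase model CPIJ006199-RA (65.0 CPM against 3.77 to 6.0), at citrate synthase CPIJ010291-RA (478 CPM against 12.2 to 22.3) and at the carrier model CPIJ006475-RA (35.3 CPM against 0 to 1.43). Pallens 1 stood above pallens 2 to 7 at the same trehalase model (66.3 CPM against 14.9 to 27.7) and at the same citrate synthase model (553 CPM against 58.1 to 225). It also did so at glucose-6-phosphate isomerase CPIJ017610-RA (204 CPM against 83.9 to 126).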

How the results depend on the processing

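The count of members called was 1 and that of all genes 57. The 3 other normalizations, 2 filters and non-robust dispersion kept 1 member and 51 to 78 genes. The counts were 2 and 295 with DESeq2, 1 and 92 with limma-voom, 2 and 118 with limma on log2(RPKM + 1) and 2 and 110 on log2(RPKM + 0.1). They were 0 and 2 at an adjusted p under 0.01 and 2 and 143 under 0.1. With 1 library left out they ranged from 0 to 5 members and from 9 to 229 genes. They were 0 and 5 without pallens 6 and 7, and 5 and 366 without pallens 1 and quinquefasciatus 5, where 3.40% of genes were called. The cause was not tested. No paired analysis was possible because replicate numbers follow accession order and pair no libraries. Of 777 log2 changes of named genes under the alternatives, 748 kept their side of the threshold, 11 fell below it and 18 passed it; 0 changed sign while called. The 19 members left untested had at most 16 reads in any library.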

Other observations

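A pyruvate dehydrogenase model with few reads (CPIJ014889-RA), chosen after its values were seen, was highest in 4 pools of both subspecies: 16.5 CPM in pallens 2, 12.2 in pallens 5, 10.8 in pallens 3 and 8.47 in quinquefasciatus 2. The other 8 libraries had 1.73 to 4.60 CPM. The 146 cuticle protein genes took 3.83%, 3.02%, 1.82% and 1.82% of reads in those 4 pools and 0.180% to 0.621% in the other 8. The isocitrate dehydrogenase CPIJ003304-RA was lowest in pallens 2 and pallens 5, at 163 and 208 CPM, against 328 to 736 CPM in the other 10 libraries. Fumarylacetoacetase (CPIJ018102-RA) was lowest in the same pair of pools, at 21.7 and 27.6 CPM. The part of cuticle gene levels in these values was not tested.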
